A study of Mus musculus with 6 samples.

Results

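Aminoacyl-tRNA synthetases are the enzymes that join each amino acid to its transfer RNA. Their genes were followed in RAW264.7 cells, a mouse macrophage-like line that grew from a tumour induced by Abelson leukaemia virus. The genes were chosen by name, as listed mouse symbols or the newer symbol with a final 1, and the rule uses no measured value, although it was written with earlier results of these data known. All 36 were found among the 24379 genes of the count table, 20 coding for the cytosolic enzymes and 16 for mitochondrial enzymes, whose symbols end in 2. The study sequenced RNA from 3 libraries labelled as treated with HFCS, the sweetener high-fructose corn syrup, and from 3 labelled WT, here the control. Both groups are the same unmodified line and carry a time of 18 h. For HFCS the titles give 140 mM while the source names give 170 mM, which leaves the dose uncertain. The growth protocol names HFCS for all 6 samples, and the medium of the control cells is nowhere described. The labels do not say that replicates were separate cultures, and the p-values thus measure only how far these libraries spread, which may be technical variation.

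A synthetase first activates its amino acid with ATP and then transfers it to the end of the matching tRNA, and many of them remove wrongly attached amino acids. The enzymes fall into class I and class II by the fold of their catalytic domain. In the cytosol several are held in a multisynthetase complex by the scaffold proteins Aimp1, Aimp2 and Eef1e1. Mitochondria charge their own tRNAs with a second set of enzymes that are coded in the nucleus and imported, except that Gars and Kars serve both compartments from a single gene. Genes of several cytosolic synthetases are known targets of ATF4, the transcription factor of the amino acid response, in which uncharged tRNA activates the kinase GCN2 and eIF2 is phosphorylated.

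Total counts per library were 13108485 to 15340255. Values are given as CPM, the usual depth-scaled count, with library sizes from edgeR's TMM method. Of 14360 genes tested, 6447 (44.9%) had a Benjamini-Hochberg adjusted p under 0.05 by the quasi-likelihood method of edgeR, here called passing. They divided evenly, with 22.4% of tested genes higher under HFCS and 22.5% lower. Scaling by library size alone moved the higher share of calls from 49.99% to 60.2% and the median log2 fold change of all genes from -0.0045 to 0.075. The WT-labelled replicate 1 stood apart, and without it 7550 genes passed. Of 10 macrophage markers, 9 were at 1 CPM or more in every library, and Mertk did not exceed 0.282 CPM. Their summed level was 2521 to 2630 CPM in the HFCS-labelled and 1957 to 2031 CPM in the WT-labelled libraries. Of the 9 tested, 7 were higher and 2, Csf1r and Cd68, lower by -0.67 and -0.42 (edgeR adjusted p of 1.4e-05 and 2.3e-04). Of 28 listed markers of fibroblasts, epithelium, T cells, B cells and neutrophils, 18 were in the count table, and these reached at most 4.31 CPM. For epithelium 2 of 5 were there and for T cells 3 of 6. Akr1b3, an aldose reductase gene known to be induced by hypertonic media, lay at 208 ± 12.0 CPM in the HFCS-labelled and 7435 ± 381 CPM in the WT-labelled libraries (mean ± SD, n = 3 each, as for all such values). The libraries are therefore named by their labels, and every direction below rests on those labels. In bulk RNA, fewer cells of a type and less RNA per cell cannot be told apart.

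The synthetase genes moved in both directions and by small amounts. Of the 36, all of which passed the filter on low counts, 8 rose and 11 fell in the HFCS-labelled libraries, and 17 did not pass. The passing share was 52.8%, against 44.9% of all tested genes. None changed by 2-fold in edgeR or in DESeq2, a size at which 10.6% of tested genes passed, and the largest change was 1.52-fold. The libraries of the groups did not overlap for 24 of the 36 genes (66.7%), against 54.5% of tested genes. The median size of change, without regard to sign, was 0.25 on the log2 scale, against 0.33 for all tested genes. Of the 20 cytosolic genes 6 were higher, 6 lower and 8 not passed, with a median log2 fold change of -0.0018. Of the 16 mitochondrial genes 2 were higher, 5 lower and 9 not passed, with a median of -0.05, which was 0.027 when libraries were scaled by size alone. Both medians lay near that of all tested genes, -0.0045.

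**Figure D1:**
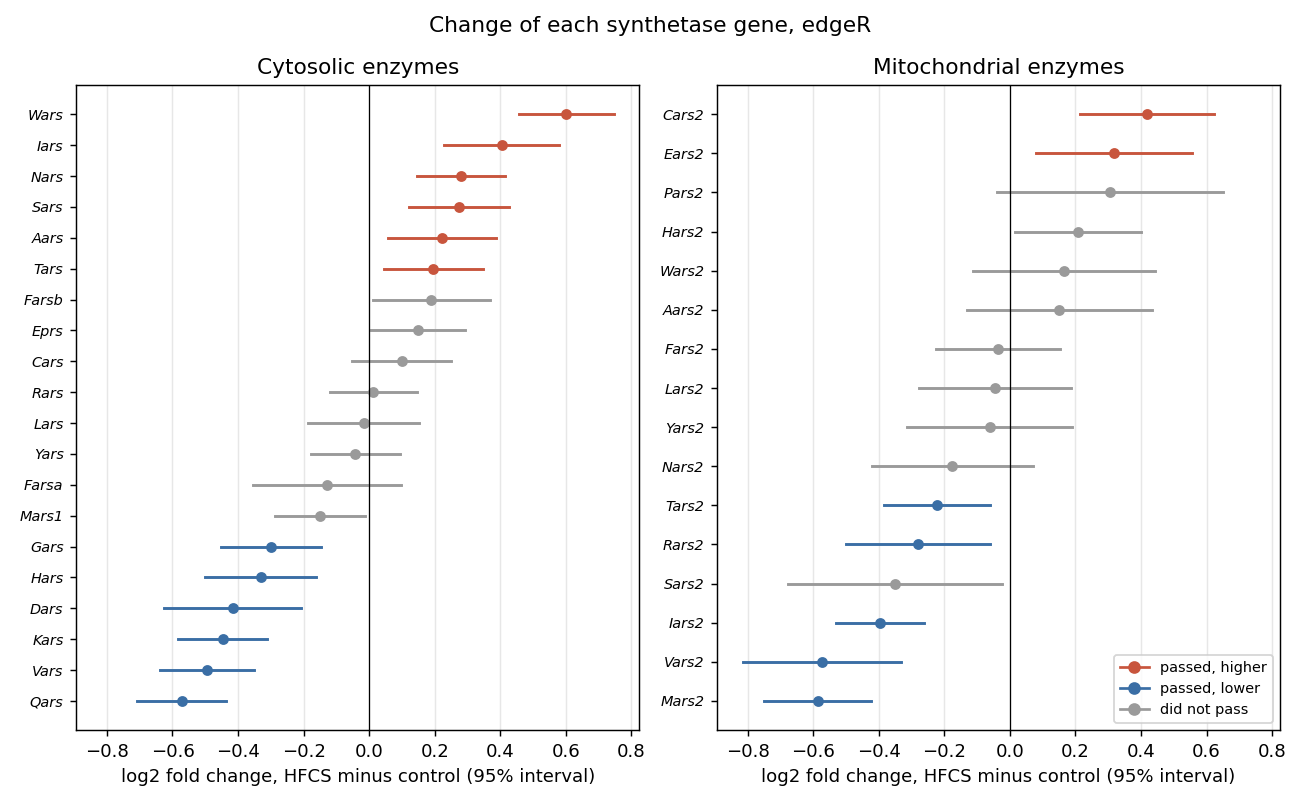
Log2 fold change (HFCS-labelled against WT-labelled) of each of the 36 synthetase genes with its 95% interval from edgeR, cytosolic and mitochondrial genes in separate panels. Red points passed as higher, blue as lower and grey did not pass; the cytosolic genes run from -0.57 (Qars) to 0.60 (Wars) and the mitochondrial genes from -0.59 (Mars2) to 0.42 (Cars2).

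Levels between genes were compared as CPM per kilobase of annotated exon. In the WT-labelled libraries the cytosolic genes ran from 136 ± 8.46 CPM per kilobase for Vars, the valine enzyme, to 10.9 ± 1.54 for Farsa, the catalytic subunit of the phenylalanine enzyme. Gars (112 ± 7.82, glycine) and Sars (106 ± 7.23, serine) came next, and their ranges overlapped. Farsb, whose product pairs with Farsa in one enzyme, was at 61.0 ± 6.59 CPM per kilobase. Among mitochondrial genes Lars2 (leucine) was highest at 35.2 ± 2.62 CPM per kilobase, followed by Iars2 (isoleucine) at 16.8 ± 0.331. The lowest were Ears2 (glutamate) at 2.90 ± 0.127 and Aars2 (alanine) at 2.77 ± 0.238 CPM per kilobase, whose libraries overlapped. The order changed in the HFCS-labelled libraries, where Sars was first at 128 ± 4.76 and Vars next at 96.5 ± 0.430 CPM per kilobase. Wars, the tryptophan enzyme, moved from rank 7 of 36 to rank 3, where its libraries overlapped those of Gars, and Qars, the glutamine enzyme, from rank 14 to rank 19. The order depends on the length used. Per kilobase of the longest transcript Wars moved from rank 14 to 5 and Qars from rank 11 to 16, and Nars in place of Vars followed Sars under HFCS. On that length Ears2 (3.05) and Pars2 (3.23) were the lowest in the WT-labelled libraries, and Tars2 (27.5) and Iars2 (27.3) followed Lars2 (100.2) among mitochondrial genes.

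**Figure D2:**
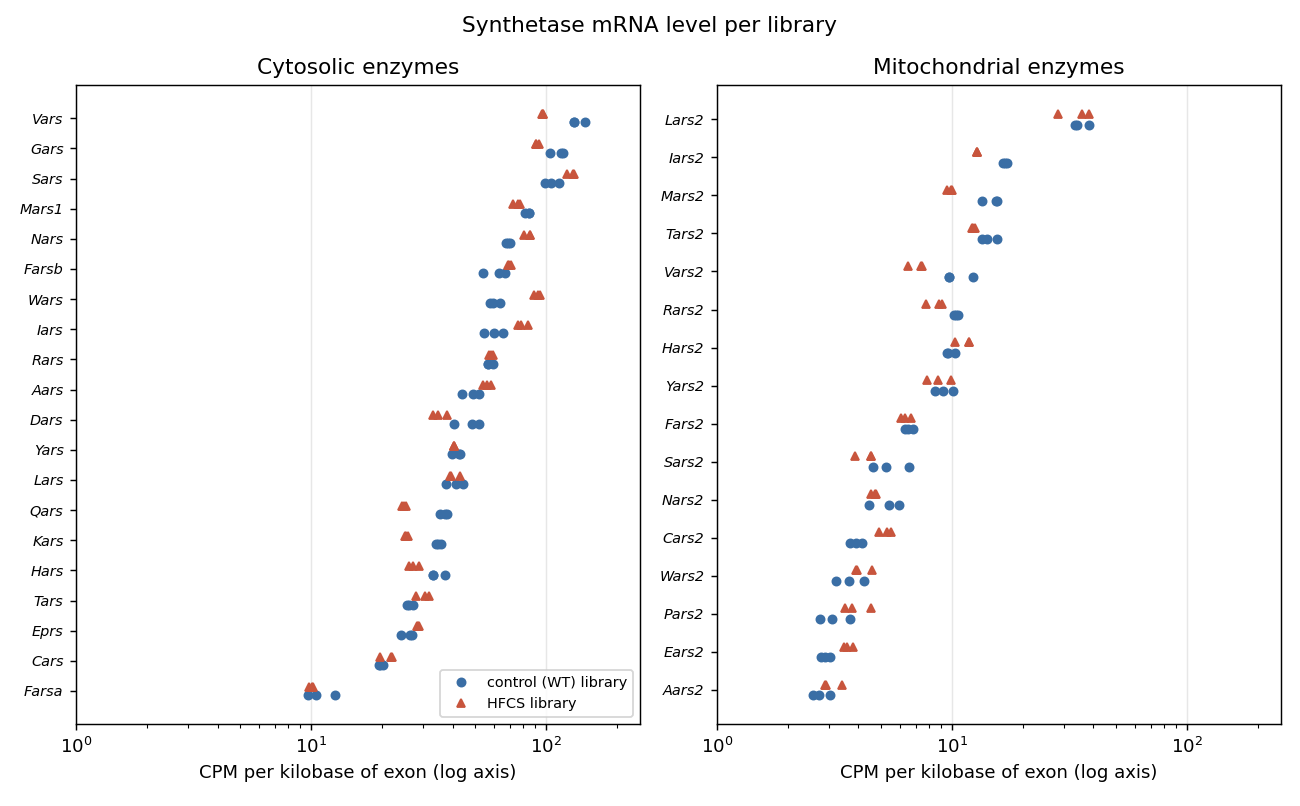
CPM per kilobase of exon on a log axis for each synthetase gene, 1 point per library, HFCS-labelled and WT-labelled libraries in separate colours and the 2 compartments in separate panels. Most cytosolic genes lie above the mitochondrial ones. Farsa and Cars (10.9 and 19.8 CPM per kilobase in the WT-labelled libraries) are the lowest cytosolic genes. By WT-labelled means Lars2 lies above both, and Iars2, Mars2 and Tars2 lie above Farsa alone.

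Summed over genes, the cytosolic enzymes took 5590, 5519 and 5578 CPM in HFCS-labelled replicates 1 to 3 and 5498, 5429 and 5608 CPM in WT-labelled replicates 1 to 3. These ranges overlapped. The mitochondrial enzymes took 1033, 1062 and 959 CPM in the HFCS-labelled and 1150, 1185 and 1097 CPM in the WT-labelled libraries, so that all HFCS-labelled libraries were lower on this scale. Lars2 alone, the most abundant of them, accounted for 314 to 423 CPM. Whether the libraries overlapped depended on the scaling. As shares of raw counts, without TMM, the cytosolic genes held 0.564% to 0.574% against 0.525% to 0.547%, which did not overlap, and the mitochondrial genes 0.0988% to 0.109% against 0.107% to 0.114%, which did. The ratio of the cytosolic to the mitochondrial sum, which no scaling alters, averaged 5.48 ± 0.313 under HFCS against 4.83 ± 0.267 under WT labels, without overlap.

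Promoter sequence was read for the genes that RefSeq's GRCm38.p6 windows cover, from 250 bases before to 50 bases after the transcription start. Windows were matched for 27 of the 36 genes, 13 cytosolic and 14 mitochondrial, and not for Cars, Hars, Lars, Nars, Rars, Vars, Wars, Hars2 and Pars2. The amino acid response element, searched as TGATGNAA on both strands, was found for 5 of the 27 genes (18.5%), against 3.97% of 32851 windows in the table. For this and the other motifs the first share is over genes and the second over windows. All 5 were cytosolic genes. They are shown because ATF4 is known to bind this element and the genes that hold it moved in different directions. Each line gives 30 bases 5′ to 3′ on the gene's strand, with the matched letters, or their complement read on the other strand, in capitals.
Yars, chr4:129189895-129189924, plus strand: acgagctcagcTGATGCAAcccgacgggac
Gars, chr6:55037960-55037989, plus strand: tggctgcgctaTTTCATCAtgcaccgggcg
Aars, chr8:111033840-111033869, plus strand: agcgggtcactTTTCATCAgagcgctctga
Iars, chr13:49682126-49682155, plus strand: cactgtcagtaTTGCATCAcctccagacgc
Tars, chr15:11399655-11399684, minus strand: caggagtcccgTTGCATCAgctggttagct
The match shown began 4 bases after the start in Yars, 30 before it in Gars, 10 after it in Aars, 8 after it in Iars and 15 before it in Tars. Of these genes Aars, Iars and Tars were higher, Gars was lower and Yars did not pass. The calls of Aars and Tars did not hold under every alternative. Of all 13 cytosolic genes with a window 4 were higher, 4 lower and 5 not passed. A match describes letters only and says nothing of binding. The E-box CACGTG was also found for 5 of the 27 genes (18.5%, against 7.15% of all windows), namely Aars, Ears2, Farsb, Iars and Tars. The ETS motif CCGGAAGT was found for 3 genes (11.1%, against 3.89% of all windows), namely Farsa, Mars1 and Rars2. The palindromic NRF1 motif was in none, against 0.971% of all windows.

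Among cytosolic genes 6 rose in the HFCS-labelled libraries. Wars, at chr12:108860030-108894174 on the minus strand of mm10, stood at 319, 305 and 324 CPM in HFCS-labelled replicates 1 to 3 and at 205, 199.3 and 220.1 CPM in WT-labelled replicates 1 to 3. Every HFCS-labelled library lay well above every WT-labelled one. The log2 fold change of Wars was 0.60 ± 0.07 (SE), with an edgeR adjusted p of 4.6e-05. Iars, the isoleucine enzyme of the multisynthetase complex, stood at 413, 401 and 439 CPM against 285, 315 and 346 CPM. Of the 50-base stretches in its annotated transcripts, 7.15% are shared with Gm4849. Its groups did not overlap, although the WT-labelled libraries spread more widely, and its log2 fold change was 0.41 ± 0.08 (edgeR adjusted p = 0.00197). Nars, the asparagine enzyme, stood at 369.9, 351 and 371 CPM against 295, 305 and 299.4 CPM, a log2 fold change of 0.28 ± 0.06 (edgeR adjusted p = 0.00346). Sars, which also charges the selenocysteine tRNA with serine, stood at 677, 671 and 632 CPM against 584, 510.4 and 541 CPM. These groups did not overlap, and the log2 fold change was 0.27 ± 0.07 (edgeR adjusted p = 0.00821).

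The rises of Aars and Tars were the smallest of the 6, and neither call held under every alternative. Aars, the alanine enzyme, stood at 539, 522 and 497 CPM against 479, 406 and 452 CPM, a log2 fold change of 0.22 ± 0.07 (edgeR adjusted p = 0.0318). It did not pass without HFCS-labelled replicate 1 (edgeR adjusted p = 0.101), HFCS-labelled replicate 2 (0.0842), WT-labelled replicate 2 (0.107) or WT-labelled replicate 3 (0.0676), nor with all libraries under upper-quartile scaling (0.0607). Of the 50-base stretches in its annotated transcripts, 13.5% are shared with Exosc6, a gene not analysed here. Tars, the threonine enzyme, stood at 180.1, 165 and 187 CPM against 154, 151 and 160.0 CPM, a log2 fold change of 0.20 ± 0.07 (edgeR adjusted p = 0.0380). Its call was lost without HFCS-labelled replicate 1 (edgeR adjusted p = 0.101), HFCS-labelled replicate 3 (0.117), WT-labelled replicate 2 (0.0987) or WT-labelled replicate 3 (0.0592), and with all libraries under upper-quartile scaling (0.0710). For both genes the 3 HFCS-labelled libraries still lay above the 3 WT-labelled ones.

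Another 6 cytosolic genes fell in the HFCS-labelled libraries. Qars, at chr9:108507706-108515941 on the plus strand, stood at 159.9, 166 and 163 CPM in HFCS-labelled replicates 1 to 3 and at 245, 233 and 248 CPM in WT-labelled replicates 1 to 3. The spread within each group was small beside the gap, and the log2 fold change was -0.57 ± 0.06 (edgeR adjusted p = 4.1e-05). Vars stood at 539, 541 and 544 CPM against 817, 733 and 737 CPM. The HFCS-labelled libraries were nearly equal while WT-labelled replicate 1 lay above the other two, and the log2 fold change was -0.49 ± 0.07 (edgeR adjusted p = 1.6e-04). Kars, the lysine enzyme of cytosol and mitochondria, stood at 112, 113 and 115 CPM against 154, 151 and 159 CPM, a log2 fold change of -0.45 ± 0.06 (edgeR adjusted p = 2.1e-04).

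Dars, the aspartate enzyme of the complex, stood at 143, 151 and 165 CPM against 176, 225 and 212 CPM. Its WT-labelled replicate 1 was close to the highest HFCS-labelled library, and the log2 fold change was -0.42 ± 0.09 (edgeR adjusted p = 0.00456). Hars, the histidine enzyme, stood at 70.6, 66.1 and 64.1 CPM against 90.6, 81.0 and 80.9 CPM, with a log2 fold change of -0.33 ± 0.08 (edgeR adjusted p = 0.00529). Hars shares 195 bases of exon with Hars2 on the opposite strand. No source used here gives the counting strand, so reads from stretches that genes share cannot be told apart. Gars, the glycine enzyme of cytosol and mitochondria, stood at 281, 281 and 291 CPM against 322, 366 and 362 CPM, with a log2 fold change of -0.30 ± 0.07 (edgeR adjusted p = 0.00497).

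Neither the multisynthetase complex nor a catalytic class moved as a block. Of the 8 complex members Iars was higher, Dars, Kars and Qars were lower, and Eprs, Lars, Mars1 and Rars did not pass, with a median log2 fold change of -0.08. Of the 12 cytosolic genes outside it 5 were higher, 3 lower and 4 not passed, with a median of 0.14. Among cytosolic class I genes 2 were higher and 2 lower of 9, and among class II genes 4 were higher and 4 lower of 10. The shares over all tested genes were 22.4% higher and 22.5% lower. Eprs, whose product joins a class I glutamate enzyme to a class II proline enzyme, was counted in neither.

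The other 8 cytosolic genes did not pass. Lars, the leucine enzyme and a leucine sensor of the mTORC1 pathway, had a log2 fold change with a 95% interval of -0.19 to 0.15. That of Rars (arginine) ran from -0.12 to 0.15, that of Yars (tyrosine) from -0.18 to 0.09 and that of Cars (cysteine) from -0.05 to 0.25. None of these 4 intervals reaches beyond 0.25 in size. Farsa and Farsb, the subunits of one enzyme, had log2 fold changes of -0.13 and 0.19, with intervals of -0.35 to 0.10 and 0.01 to 0.37. The libraries of Farsa overlapped and those of Farsb did not, and Farsb passed without WT-labelled replicate 2 (edgeR adjusted p = 0.0341), and with all libraries with library size alone (0.0184), without a filter (0.0397) or with a replicate block (0.0371). Eprs stood at 509, 517 and 522 CPM against 434, 475 and 486 CPM without overlap, with a log2 fold change of 0.15 and an edgeR adjusted p of 0.0855 (0.0145 with library size alone and 0.0483 without a filter). Mars1, the methionine enzyme, had a log2 fold change of -0.15 (edgeR adjusted p = 0.0691, and 0.0349 under upper-quartile scaling), also without overlap. It shares 68 bases of exon with Ddit3 on the opposite strand, and Ddit3, the stress transcription factor CHOP, was higher by 0.50 on the log2 scale (edgeR adjusted p = 0.00218).

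Among mitochondrial genes 5 fell and 2 rose (3 and 3 when libraries were scaled by size alone), and the largest fall was that of Mars2, the mitochondrial methionine enzyme. Mars2, at chr1:55237177-55248470 on the plus strand, stood at 113, 112 and 108.0 CPM in HFCS-labelled replicates 1 to 3 and at 175, 174 and 151 CPM in WT-labelled replicates 1 to 3. The groups did not overlap, and the log2 fold change was -0.59 ± 0.07 (edgeR adjusted p = 1.3e-04). Vars2 (valine) stood at 40.7, 40.4 and 35.5 CPM against 67.2, 53.2 and 53.0 CPM, with a log2 fold change of -0.57 ± 0.11 (edgeR adjusted p = 0.00165). Its WT-labelled replicate 1 was the highest library. Iars2 stood at 114, 113 and 113 CPM against 146, 152 and 149.6 CPM, with a log2 fold change of -0.40 ± 0.06 (edgeR adjusted p = 4.2e-04). Iars2 shares 2034 bases, 22.9% of its exon bases, with Rab3gap2 on the opposite strand, which was itself lower by -0.30 (edgeR adjusted p = 0.00273), and reads from that stretch cannot be told apart.

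Rars2 (arginine) and Tars2 (threonine) fell less, and neither call held under every alternative. Rars2 stood at 25.2, 21.6 and 24.5 CPM against 28.8, 28.3 and 29.5 CPM, with a log2 fold change of -0.28 ± 0.10 (edgeR adjusted p = 0.0397). It did not pass without HFCS-labelled replicate 1 (edgeR adjusted p = 0.0746), 2 (0.189) or 3 (0.0821), or without WT-labelled replicate 2 (0.0672) or 3 (0.108). With all libraries it did not pass with library size alone (edgeR adjusted p = 0.126), without a filter (0.122) or in DESeq2 (0.105). Tars2 stood at 86.8, 84.2 and 84.9 CPM against 107, 97.8 and 93.2 CPM, with a log2 fold change of -0.22 ± 0.07 (edgeR adjusted p = 0.0295). It did not pass without HFCS-labelled replicate 1 (edgeR adjusted p = 0.0967), 2 (0.121) or 3 (0.0982), or without WT-labelled replicate 2 (0.0523). With all libraries the adjusted p of Tars2 was 0.136 with library size alone and 0.0994 without a filter in edgeR, and 0.0657 in DESeq2. In both genes the groups did not overlap.

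Cars2 and Ears2 were the mitochondrial genes that rose. Cars2, the mitochondrial cysteine enzyme, which is also known to make cysteine persulfide, stood at 35.5, 38.3 and 39.8 CPM against 29.9, 26.7 and 28.4 CPM. The groups did not overlap, and the log2 fold change was 0.42 ± 0.09 (edgeR adjusted p = 0.00389). Cars2 shares 422 bases of exon with Naxd on the opposite strand, which was higher by 0.63 (edgeR adjusted p = 0.00178), and reads from that stretch, 5.83% of the exon bases of Cars2, cannot be told apart. Ears2 shares 89 bases, 1.73% of its exon bases, with Ubfd1 on the opposite strand, and reads from that stretch cannot be told apart. Ubfd1 had a log2 fold change of -0.08 and did not pass (edgeR adjusted p = 0.377). Ears2 stood at 18.4, 19.5 and 17.9 CPM against 14.8, 15.6 and 14.3 CPM, with a log2 fold change of 0.32 ± 0.11 (edgeR adjusted p = 0.0340). That call was lost without HFCS-labelled replicate 1 (edgeR adjusted p = 0.0751), HFCS-labelled replicate 2 (0.114) or WT-labelled replicate 3 (0.0960), and with all libraries under upper-quartile scaling in edgeR (0.0516) or in DESeq2 (0.0814).

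The remaining 9 mitochondrial genes did not pass. Lars2, the most abundant, stood at 398, 423 and 314 CPM against 376, 423 and 371 CPM. HFCS-labelled replicate 3 was the lowest of the 6, the groups overlapped, and the 95% interval of the log2 fold change ran from -0.28 to 0.19. Hars2 (histidine) had a log2 fold change of 0.21 (edgeR adjusted p = 0.0744), Pars2 (proline) of 0.31 (0.137) and Sars2 (serine) of -0.35 (0.0767). Of these the libraries of Hars2 and Sars2 did not overlap and those of Pars2 did. These outcomes were not stable. Hars2 passed without HFCS-labelled replicate 1 (edgeR adjusted p = 0.0451) or with library size alone (0.0192), Pars2 without WT-labelled replicate 1 (0.0367) and Sars2 without WT-labelled replicate 2 (0.0347) or with a replicate block (0.0420). Aars2, Fars2, Nars2, Wars2 and Yars2, of alanine, phenylalanine, asparagine, tryptophan and tyrosine, had log2 fold changes from -0.18 to 0.16, and their libraries overlapped. Nars2, at -0.18, passed without WT-labelled replicate 1 (edgeR adjusted p = 0.0168). Of the 7 mitochondrial class II genes 1 passed, as lower, against 6 of the 9 class I genes, and the difference between these shares was not tested. Of all tested genes 44.9% passed.

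Cytosolic genes were also set against the mitochondrial gene of the same amino acid, as the log2 ratio of their CPM in each library. Dars, Gars, Kars and Qars, all of which fell, have no such partner among the listed genes and enter no pair. Of 17 such pairs, 11 had ratios that did not overlap between the groups, of which 8 were higher and 3 lower under HFCS. Eprs and Fars2 each enter 2 pairs, and single genes did not overlap in 54.5% of all tested genes. The share over other gene pairs was not computed, and nothing particular to these pairs is read from the count. With 3 libraries against 3, an exact two-sided permutation test cannot give a p below 0.1, and these 11 reached it (adjusted over 17 pairs, 0.155). Iars against Iars2 differed most. Its log2 ratio was 1.86, 1.82 and 1.95 in HFCS-labelled replicates 1 to 3 and 0.96, 1.05 and 1.21 in WT-labelled replicates 1 to 3, a difference of 0.80 ± 0.08 (SE). Here the cytosolic gene rose and the mitochondrial gene fell. Tars and Tars2 also passed in opposite directions, and their log2 ratio differed by 0.41 ± 0.09.

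In the other pairs with a higher ratio only one gene passed, or neither. The log2 ratio of Sars to Sars2 was higher by 0.61 ± 0.10, that of Nars to Nars2 by 0.45 ± 0.12 and that of Wars to Wars2 by 0.43 ± 0.11. Mars1 to Mars2 was higher by 0.43 ± 0.05, through the fall of Mars2. Rars to Rars2 was higher by 0.29 ± 0.07 and Farsb to Fars2 by 0.23 ± 0.13. The ratio was lower for Hars to Hars2, at -0.53 ± 0.13, for Cars to Cars2, at -0.32 ± 0.10, and for Eprs to Ears2, at -0.16 ± 0.07. Vars and Vars2, the one pair that passed in the same direction, fell together, and their ratio differed by 0.07 ± 0.09 with overlapping libraries.

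**Figure D3:**
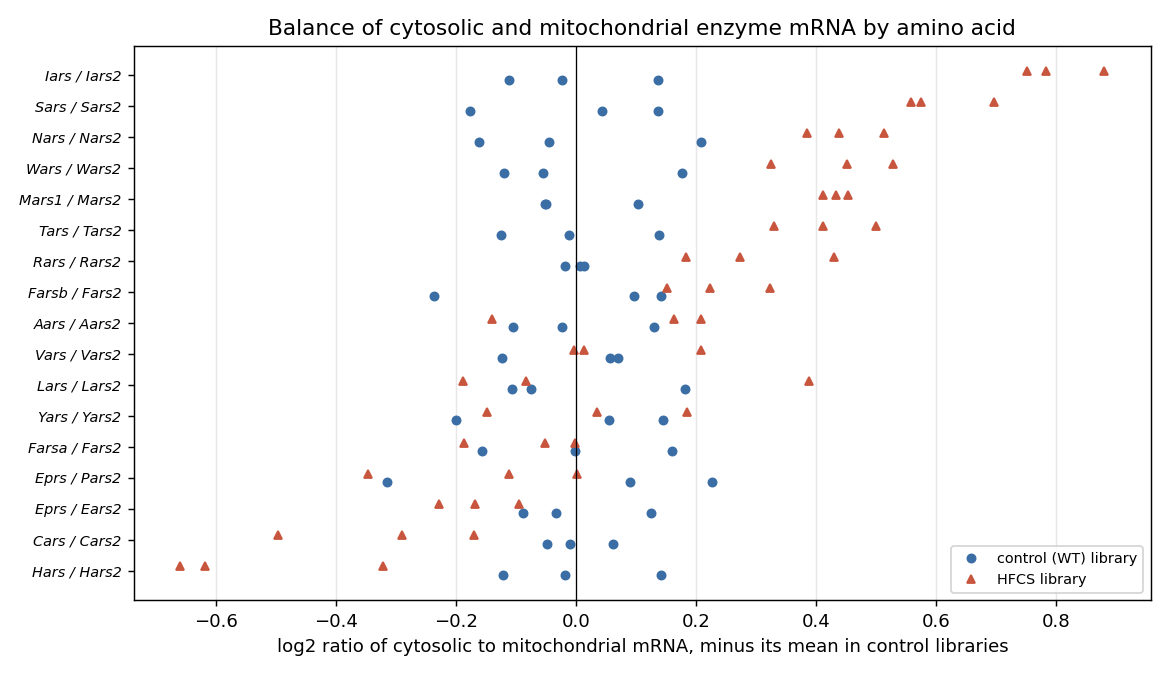
Log2 ratio of the cytosolic to the mitochondrial gene in each pair of the same amino acid, per library, after subtracting the mean of the WT-labelled libraries. Dars, Gars, Kars and Qars enter no pair. The HFCS-labelled points lie above all WT-labelled points in 8 pairs, led by Iars to Iars2 at 0.80, and below them in 3, led by Hars to Hars2 at -0.53.

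Genes that work beside the synthetases were counted in short lists, beside 22.4% higher and 22.5% lower of all tested genes. The scaffolds Aimp1, Aimp2 and Eef1e1 had log2 fold changes of -0.11, -0.17 and -0.23, and 0 of 3 passed in edgeR or in DESeq2. Eef1e1 came closest, with an edgeR adjusted p of 0.0538, and was the 1 gene with an unadjusted p under 0.05. It passed as lower under upper-quartile scaling (edgeR adjusted p = 0.0321). Tarsl2, a second threonine enzyme of the cytosol, had a log2 fold change of 0.09 and did not pass. Of 4 proofreading genes Prorsd1, related to the editing domain of prolyl-tRNA synthetases, was higher by 0.51 (edgeR adjusted p = 0.00922) and the other 3 did not pass. Mitochondria make glutaminyl-tRNA by amidating misacylated tRNA with the enzyme of Qrsl1, Gatb and Gatc. Gatb was lower by -0.50 (edgeR adjusted p = 0.00129), while Qrsl1 and Gatc, at -0.29 and 0.14, did not pass, although Qrsl1 did without WT-labelled replicate 1 (edgeR adjusted p = 0.00226), under upper-quartile scaling (0.0449) or with a replicate block (0.0391). Mtfmt, which formylates the initiator methionyl-tRNA made by Mars2, was lower by -0.21 (edgeR adjusted p = 0.0371), a call lost without HFCS-labelled replicate 1 (0.163), 2 (0.126) or 3 (0.0845), or WT-labelled replicate 2 (0.103) or 3 (0.108). With all libraries Mtfmt did not pass with library size alone (edgeR adjusted p = 0.176), without a filter (0.157) or in DESeq2 (0.116).

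Of 21 genes of tRNA processing and export 4 were higher, 3 lower and 14 not passed, with a median log2 fold change of 0.03. Over all tested genes 22.4% were higher and 22.5% lower. Pop1, a subunit of RNase P and RNase MRP, fell by 1.17 on the log2 scale, from 31.0 ± 0.725 to 13.8 ± 0.539 CPM (edgeR adjusted p = 8.9e-06). Rpp25, of the same enzymes, fell by 0.99 (edgeR adjusted p = 0.00117). Hsd17b10 and Trmt10c, which belong to mitochondrial RNase P, went in opposite directions, with log2 fold changes of -0.96 and 0.52 (edgeR adjusted p of 1.2e-04 and 9.2e-04). Tsen54 and Tsen34, subunits of the endonuclease that removes tRNA introns, were higher by 0.72 and 0.64 (edgeR adjusted p of 0.00211 and 0.00316).

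Of 6 cytosolic elongation factors 3 were lower and 0 higher in edgeR (0 higher also at an unadjusted p and in DESeq2, and 1 lower, Eef1a1, when libraries were scaled by size alone). Their median log2 fold change was -0.19. For these and for the mitochondrial factors below, the shares over all tested genes were 22.4% higher and 22.5% lower. Eef1a1, the factor that carries charged tRNA to the ribosome, stood at 12461 ± 324 CPM in the HFCS-labelled and 21091 ± 619 CPM in the WT-labelled libraries. It fell by 0.76 on the log2 scale (SE 0.06, edgeR adjusted p = 3.3e-06), a larger change than that of any of the 36 synthetase genes. Eef1g and Eef1d, of its exchange factor, had log2 fold changes of -0.23 and -0.22 (edgeR adjusted p of 0.0328 and 0.0394). Eef1g did not pass without HFCS-labelled replicate 1 (edgeR adjusted p = 0.0797), 2 (0.0747) or 3 (0.155), or with library size alone (0.137). Eef1d did not pass without HFCS-labelled replicate 1 (edgeR adjusted p = 0.125), 2 (0.0825) or 3 (0.162), or WT-labelled replicate 1 (0.0643) or 2 (0.0658), and with all libraries not with library size alone (0.164), without a filter (0.0993) or in DESeq2 (0.0668). Of 9 mitochondrial translation factors Guf1, a GTPase of the mitochondrial ribosome, was lower by -0.85 and Gfm1, an elongation factor, by -0.38, while Mtif2, an initiation factor, was higher by 0.42 (edgeR adjusted p of 3.5e-05, 0.00386 and 0.00623).

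Of 28 tested ATF4 targets and amino acid response genes outside the synthetases 14 were higher, 6 lower (3 when libraries were scaled by size alone) and 8 not passed, beside 22.4% higher and 22.5% lower of all tested genes, with a median log2 fold change of 0.30. Atf4 itself stood at 459, 456 and 474 CPM in HFCS-labelled replicates 1 to 3 and at 258, 222 and 256 CPM in WT-labelled replicates 1 to 3. All HFCS-labelled libraries were higher, and the log2 fold change was 0.92 ± 0.07 (edgeR adjusted p = 6.2e-06). Trib3, a pseudokinase induced by ATF4, stood at 208 ± 6.91 CPM against 41.7 ± 8.07 CPM, a log2 fold change of 2.32 ± 0.12 (edgeR adjusted p = 3.0e-07). Chac1, which degrades glutathione, and Atf3 were higher by 2.14 and 1.25 (edgeR adjusted p of 4.0e-06 and 4.8e-06). Psat1, Psph and Phgdh, the enzymes of serine synthesis, were lower by -0.45, -0.36 and -0.33 (edgeR adjusted p of 3.6e-04, 0.00501 and 0.00548). Asns, the asparagine synthetase and a widely used ATF4 target, named after its values were seen, had a log2 fold change of 0.06 (edgeR adjusted p = 0.447).

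A list of 7 genes held eIF2 kinases, phosphatase subunits and Gcn1l1, which is neither. Of these, 2 were higher and 0 lower in edgeR (1 at an unadjusted p, 0 in DESeq2). The median log2 fold change of the list was -0.02. Gcn1l1 had a log2 fold change of -0.16 and did not pass (edgeR adjusted p = 0.0971). Among all tested genes 22.4% were higher and 22.5% lower. Ppp1r15a, the stress-induced subunit that directs phosphatase to eIF2, stood at 77.5 ± 8.003 CPM against 24.4 ± 3.93 CPM, a log2 fold change of 1.66 ± 0.12 (edgeR adjusted p = 3.8e-06). Ppp1r15b, its constitutive counterpart, was higher by 0.32 (edgeR adjusted p = 0.00141). Eif2ak4, which codes for GCN2, had a log2 fold change of -0.13 and did not pass (edgeR adjusted p = 0.245), but passed without WT-labelled replicate 1 (0.0293).

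**Figure D4:**
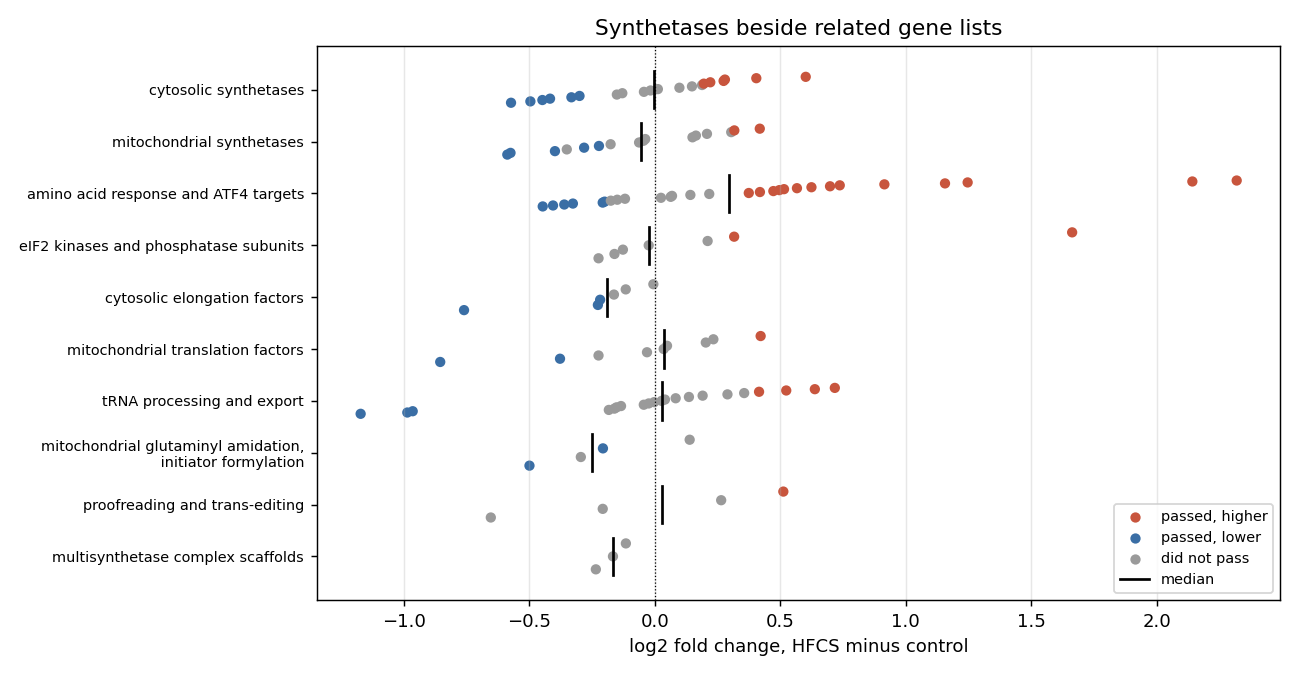
Log2 fold change (HFCS-labelled against WT-labelled) of the tested genes in both synthetase groups and in 8 related lists, 1 point per gene (red passed as higher, blue as lower, grey did not pass), with a bar at each median. The synthetase genes lie within -0.59 to 0.60, while the ATF4 list reaches 2.32 (Trib3) and tRNA processing reaches -1.17 (Pop1).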

How the data were processed

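Raw gene counts, deposited by the authors as whole numbers per gene, came from 3 HFCS-labelled and 3 WT-labelled libraries. HISAT2 2.0.5, featureCounts 1.5.0-p3, CASAVA and mm10 are named, without order, per the submitters' processing notes. No source used here gives the annotation release or strand setting. Symbols were matched for all but 35 of 24379 identifiers, with exons from GENCODE M21. Genes were kept by filterByExpr with a minimum count of 10, which removed 10019, and tested with edgeR 4.0.16 (R 4.3.3): TMM, glmQLFit and glmQLFTest without covariates, Benjamini-Hochberg adjustment over 14360 genes. Each SE is the size of the fold change over the root of F. Pair ratios used log2 CPM with a prior count of 2. Every member is named; in lists of over 9 genes, up to 3 a direction with the smallest adjusted p, and Atf4. The members and lists were chosen with earlier results of these data known. On simulated data with 200 genes changed and 13924 tested, the fit recovered 56% of genes changed 1.5-fold and 78% changed 2-fold. Of its 182 calls 11.0% were false. The changed share was far smaller than the 44.9% of genes that passed in the real data, so these rates do not carry over to them. Alternatives were other scalings, DESeq2 1.42.0, other filters, a replicate block and each library left out. Intervals cover the spread between libraries, not between cultures. Some items are not reported here.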

Additional observations from a re-analysis of the deposited data

How the results depend on the processing

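Of the 19 synthetase genes that passed, 14 passed under all 13 alternatives and 5 (Aars, Tars, Ears2, Rars2 and Tars2) did not. Over all settings 4 to 8 cytosolic genes were higher and 6 to 7 lower. The number of mitochondrial genes higher was 1 with upper-quartile scaling and with DESeq2, and 1 to 3 with a library left out. The number lower was 3 with library size alone, with DESeq2 and without a filter, and 3 to 6 with a library left out. With library size alone the cytosolic median was 0.078, as the median of all genes moved to 0.075. Genes not called that changed sign were Lars (0.063 with library size alone, 0.018 without a filter), Rars (-0.019 with upper-quartile scaling) and, with library size alone, Yars (0.037), Fars2 (0.042), Lars2 (0.035) and Yars2 (0.018). With a library left out the log2 fold change of Lars ran from -0.073 to 0.043, the log2 fold change of Fars2 from -0.066 to 0.012, that of Lars2 from -0.120 to 0.087 and that of Yars2 from -0.138 to 0.027. For these sign changes the cause was not tested. The replicate block called 7152 genes, 7 cytosolic higher and 6 lower, 2 mitochondrial higher and 6 lower. For each library the deviation of log2 CPM from the mean of its own group was taken for every gene. These deviations correlated between same-numbered libraries at 0.167, -0.064 and 0.191, not all over 0.1, and the libraries were not treated as pairs. The deviations of HFCS-labelled replicates 1 and 3 correlated best with their own number and those of replicate 2 with WT-labelled replicate 1. This is a hint from the data and not the design. Median levels per kilobase in the WT-labelled libraries were 47.4 (cytosolic) and 7.86 (mitochondrial), and 78.8 and 10.7 with the longest transcript as length. Of the genes not called, 7 passed in some setting. Depth was lowest for Pars2, with 543 counts in the HFCS-labelled and 416 in the WT-labelled libraries together.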

Other observations

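A gene within Farsb on the same strand, 4833412K13Rik, was chosen after its values were seen. It held 29, 29 and 32 counts in HFCS-labelled replicates 1 to 3 and 121, 115 and 112 counts in WT-labelled replicates 1 to 3, with a log2 fold change of -2.02 ± 0.18 (SE, edgeR adjusted p = 1.2e-05). It shares no exon bases with Farsb, whose log2 fold change was 0.19.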
